A study of Mus musculus with 9 samples.

Results

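The collagen chain genes were followed in cultures of mouse embryonic stem cells that had been turned into heart muscle cells. Every gene whose symbol has the form of a collagen chain (Col, a type number, a, a chain number) was taken, and each gene was represented by its brightest probe set. This gave 42 collagen genes among 18193 genes measured, and 27 of the 42 had at least 2 probe sets. Col6a6 and Col28a1 were not analysed here. The genes were grouped by the kind of assembly their proteins form: 11 fibrillar chains, 6 basement membrane chains, 5 microfibril chains, 9 chains of the FACIT class, 3 network chains, 2 multiplexins, 4 transmembrane chains and 2 others.

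Collagens are the main structural proteins of the extracellular matrix. Their alpha chains carry long repeats with glycine at a fixed spacing, and several chains wind into a common helix. In some types, such as type I, the helix joins the chains of different genes, and these are then made together. Fibrillar collagens give tissue its tensile strength, and in the heart they are made mostly by fibroblasts. Type IV chains form the sheet of the basement membrane that surrounds each cardiomyocyte, type VI chains form beaded microfibrils between that sheet and the fibrils, and the FACIT chains decorate fibril surfaces.

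All 9 arrays came from the line synp, made from R1 embryonic stem cells of mixed 129X1 and 129S1 background. These cells carry a gene for puromycin resistance, puromycin N-acetyltransferase, driven by the promoter of Ncx1, the cardiac sodium-calcium exchanger. Every culture was differentiated with the factors Activin A, BMP4, VEGF, FGF10 and bFGF. Puromycin was present from day 7 on, and it kills cells in which the promoter is silent. RNA was collected at day 10, day 20 and day 30, with 3 arrays at each day, so the days differ in time in culture and in time under puromycin together. Resistance marks cells that used the Ncx1 promoter and does not by itself exclude other cell types. The labels name 1 line and do not say whether the 3 samples of a day were separate differentiations. The p-values can therefore only measure how these samples varied, and that variation may be technical.

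The level of a gene is its log2 signal, on which a difference of 1 is a doubling. Array medians lay between 5.48 and 5.56, and the median level over all genes was 6.63. Of 10 cardiomyocyte markers all were measured, and their mean lay between 11.67 and 12.58 on the day 10 arrays, 12.35 and 12.76 at day 20 and 12.62 and 12.74 at day 30, so the labelled cell type had its markers at high level on every array. Of the 10, 1 was called from day 10 to day 30, where 11.2% of all genes rose and 9.92% fell. It was Tnni3, the mature troponin I of heart muscle, which rose by 2.85 (adjusted p = 0.00088). Of the uncalled ones 2 had values below 0, Nkx2-5 at -0.46 (adjusted p = 0.19) and Myl7 at -0.08 (adjusted p = 0.77). The added poly-A control transcripts had mean signals of 6.16, 5.23 and 5.04 at day 10, 6.22, 6.24 and 6.75 at day 20, and 5.93, 5.88 and 6.19 at day 30. Day 10 replicates 2 and 3 were the lowest on those controls, and what part this has in the differences from day 10 was not tested.

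Collagen chain genes were higher at day 30 than at day 10 in most groups. From day 10 to day 30, 24 of the 42 (57.1%) rose at an adjusted p of 0.05, whereas 11.2% of all genes rose. Only Col26a1 fell (2.38% of the 42), against 9.92% of all genes. The median log2 difference of the 42 was 1.26, beside -0.03 over all genes. Over those of the 42 left by a filter on dim genes it was 2.97. A gene could pass that filter by rising, so this value is no evidence of a larger rise. The mean of the 42 genes by array was 6.52, 6.56 and 6.75 at day 10, 8.06, 7.88 and 7.55 at day 20, and 8.41, 8.60 and 8.30 at day 30. The arrays of different days did not overlap on that mean. The array RNA is from whole cultures, so more cells of a type that makes a collagen and more collagen RNA per cell cannot be told apart.

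**Figure D1:**
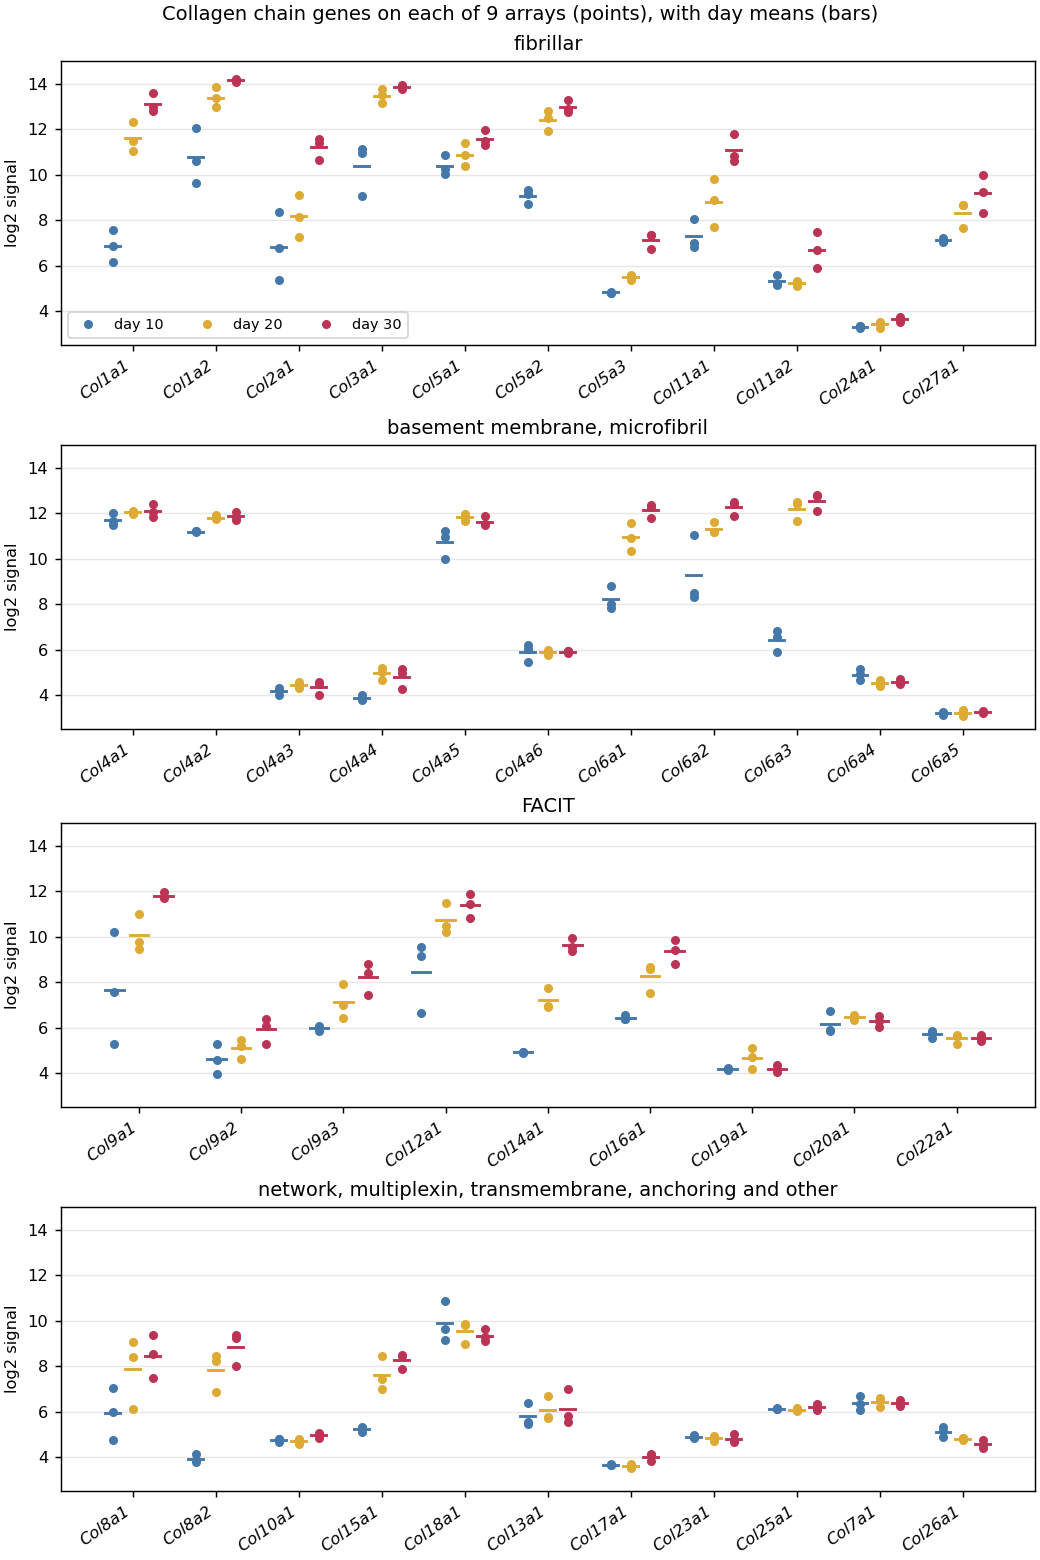
Log2 signal of collagen chain genes on each of the 9 arrays, by group, with genes along the horizontal axis and days by colour. Points are arrays and short bars are the means of the 3 arrays of a day. Col1a1 climbs from between 6.14 and 7.56 at day 10 to between 12.79 and 13.61 at day 30, whereas Col4a1 lies between 11.49 and 12.41 on all 9 arrays.

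The highest day mean exceeded the median of all genes in 25 of the 42 genes and did not in 17. A gene could pass that level by rising, so the number of rises among the 25 is no evidence about brighter genes, and 21 of them rose, the exceptions being Col18a1, Col4a1, Col4a5 and Col8a1. Among the 17 that stayed at or below the median, 3 rose (Col4a4, Col17a1 and Col9a2), 1 fell (Col26a1) and 13 did not pass the test, with differences between -0.32 and 0.32. The 25 had a median SD among 3 arrays of 0.46 on day 10, 0.50 on day 20 and 0.34 on day 30. The same quantity over all 9792 genes that passed the same level was lower on each day, at 0.29, 0.16 and 0.17.

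Of the genes that rose from day 10 both by day 20 and by day 30, 5 had a promoter window in the RefSeq table with no transcript of the gene listed as beginning further upstream. They were Col1a2, Col3a1, Col6a1, Col8a2 and Col4a2, and the windows of the first 4 are shown because these genes moved together. The Col4a2 window is not shown, since it lies within the transcript of its neighbour Col4a1. They are the 250 bases before the transcription start on build GRCm38.p6, written 5′ to 3′ on the gene's strand, at chr6:4505368-4505617 (plus strand) for Col1a2, chr1:45311288-45311537 (plus strand) for Col3a1, chr10:76726045-76726294 (minus strand) for Col6a1 and chr4:126286544-126286793 (plus strand) for Col8a2. Capitals mark the motifs searched on both strands, which are the CCAAT box, the TATA box in the form TATAAA and the GC box GGGCGG.
Col1a2: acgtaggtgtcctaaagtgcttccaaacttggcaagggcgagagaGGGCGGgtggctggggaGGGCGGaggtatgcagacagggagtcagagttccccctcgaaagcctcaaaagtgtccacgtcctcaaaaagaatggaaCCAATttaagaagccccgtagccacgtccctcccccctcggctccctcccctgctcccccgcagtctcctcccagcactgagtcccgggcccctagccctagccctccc
Col3a1: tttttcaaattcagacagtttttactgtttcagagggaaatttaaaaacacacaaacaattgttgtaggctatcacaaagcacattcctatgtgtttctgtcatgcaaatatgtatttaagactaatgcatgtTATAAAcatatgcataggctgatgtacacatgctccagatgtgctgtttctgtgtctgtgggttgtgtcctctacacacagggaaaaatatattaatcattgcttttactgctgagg
Col6a1: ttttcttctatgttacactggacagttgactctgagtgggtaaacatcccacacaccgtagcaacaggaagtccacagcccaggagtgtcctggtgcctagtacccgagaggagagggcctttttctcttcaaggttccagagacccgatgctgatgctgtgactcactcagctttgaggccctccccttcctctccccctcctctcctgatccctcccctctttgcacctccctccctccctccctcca
Col8a2: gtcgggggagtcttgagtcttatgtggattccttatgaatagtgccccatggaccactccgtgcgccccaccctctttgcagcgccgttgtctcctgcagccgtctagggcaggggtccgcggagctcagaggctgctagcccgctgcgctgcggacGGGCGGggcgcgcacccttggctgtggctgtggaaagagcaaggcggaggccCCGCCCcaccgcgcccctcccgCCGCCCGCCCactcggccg
The Col1a2 window held GGGCGG in 2 places and CCAAT in 1, and the Col3a1 window held TATAAA. The Col8a2 window held GGGCGG in 4 places, 1 as printed and 3 on the opposite strand, of which 2 overlap, and none of the motifs was in the Col6a1 window. Windows were found for 33 of the 42 collagen genes, 36 windows in all. CCAAT was in 36.1% of those windows and in 33.8% of all 32851 windows in the table. TATAAA was in 13.9% and 12.4%, and GGGCGG in 58.3% and 32.7%. A match is a description of the letters and not a binding site.

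Nearly all fibrillar chains rose. From day 10 to day 30, 10 of the 11 rose, beside 11.2% of all genes. The median difference was 3.39 (2.54 with array weights), beside -0.03 over all genes. The chains of types I, III and V that make up the fibrils of heart and other soft tissue were all among those that rose. Col24a1 was the exception, at 3.26 to 3.36 at day 10 and 3.51 to 3.72 at day 30 (difference 0.32, adjusted p = 0.060).

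Col1a1 encodes the chain that is most abundant in type I collagen, the main fibril of bone, skin and scar. Its signals were 6.85, 6.14 and 7.56 at day 10, 12.31, 11.48 and 11.02 at day 20, and 12.98, 13.61 and 12.79 at day 30. Each day lay wholly above the one before, with the widest gap between day 10 and day 20. The day 30 minus day 10 difference was 6.28 (SE 0.43, 95% interval 5.29 to 7.27, adjusted p = 0.00013), a 77.6-fold higher signal. Col1a2 encodes the partner chain of type I collagen. It gave 9.63, 12.06 and 10.60 at day 10, 13.86, 13.35 and 12.97 at day 20, and 14.22, 14.15 and 14.10 at day 30. The days did not overlap, but the day 10 arrays ranged widely and the day 30 arrays lay close to the highest signal of any probe set, 14.52. The difference was 3.39 (SE 0.53, adjusted p = 0.0038), and the other probe sets of the gene gave 4.21 and 3.52.

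Col3a1 encodes the chain of type III collagen, which forms fine fibrils beside type I in blood vessels and heart. Its signals were 9.07, 11.15 and 10.96 at day 10, 13.75, 13.53 and 13.15 at day 20, and 13.94, 13.92 and 13.78 at day 30. Nearly all of its increase lay between day 10 and day 20. The later minus the earlier step was -2.68 and was not called (limma, adjusted p = 0.21). Col3a1 rose by 3.48 from day 10 to day 30 (SE 0.49, adjusted p = 0.0024).

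Type V chains join type I chains in the core of fibrils and control their diameter. Col5a2 was at 9.34, 9.16 and 8.73 at day 10, 12.81, 12.51 and 11.93 at day 20, and 12.91, 13.28 and 12.74 at day 30. The day 10 arrays stood far below the others, and days 20 and 30 overlapped. The gene rose by 3.90 by day 30 (SE 0.26, adjusted p = 0.00011). Col5a3, a type V chain of narrower distribution, gave 4.85, 4.78 and 4.81 at day 10, 5.51, 5.57 and 5.35 at day 20, and 7.35, 7.35 and 6.71 at day 30. Its days did not overlap, and most of its increase came after day 20. It rose by 2.32 (SE 0.17, adjusted p = 0.00016), while its second, dimmer probe set moved by 0.01, and the mean of both gave 1.17.

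Col5a1, which encodes the chain found in nearly all type V molecules, moved less than its partners. It was at 10.87, 10.03 and 10.24 at day 10, 11.38, 10.88 and 10.40 at day 20, and 11.47, 11.96 and 11.31 at day 30. Day 20 overlapped day 10, and day 30 lay above day 10. The difference by day 30 was 1.20 (SE 0.30, adjusted p = 0.026), and without day 10 replicate 2 or day 30 replicate 1 or 2 it no longer passed (highest adjusted p = 0.085).

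Col2a1, the type II collagen chain of cartilage, and the type XI chains that accompany it were also higher at day 30. Array values are given for Col2a1, and above for Col5a1, by a choice made after their values were seen. It gave 6.76, 5.35 and 8.35 at day 10, 8.13, 9.13 and 7.25 at day 20, and 11.41, 11.59 and 10.66 at day 30. Days 10 and 20 overlapped, and the day 30 arrays lay above both. The gene rose by 4.40 from day 10 to day 30 (SE 0.74, adjusted p = 0.0052), a 21.1-fold higher signal. Col11a1 rose by 3.79 (SE 0.57, adjusted p = 0.0033). Col11a2 rose by 1.36 (SE 0.34, adjusted p = 0.025), but its call was lost without day 10 replicate 1 (1.29, adjusted p = 0.068), day 10 replicate 2 (1.31, adjusted p = 0.074) or day 30 replicate 2 (1.36, adjusted p = 0.069). Col27a1, a fibrillar chain made in cartilage, rose by 2.07 (SE 0.41, adjusted p = 0.010).

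Basement membrane chains had a smaller median difference than fibrillar chains. From day 10 to day 30, 2 of the 6 rose (33.3%), Col4a2 and Col4a4, beside 11.2% of all genes. The median difference was 0.53, beside -0.03 over all genes. From day 10 to day 20, 3 of the 6 rose, beside 7.30% of all genes. Col4a1 and Col4a2 encode the chains found in the basement membrane of almost every tissue. Col4a1 was at 12.01, 11.68 and 11.49 at day 10, 12.10, 12.02 and 11.98 at day 20, and 11.86, 12.41 and 12.04 at day 30. Its days overlapped, and the difference of 0.38 did not pass (95% interval -0.02 to 0.77, adjusted p = 0.16). With the mean of its probe sets in place of the brightest it was 0.59 and passed (adjusted p = 0.041). Col4a2 was at 11.21, 11.20 and 11.16 at day 10, 11.92, 11.77 and 11.73 at day 20, and 11.70, 12.06 and 11.84 at day 30. The day 10 arrays were tightly grouped and lay below all the others. Col4a2 rose by 0.68 (SE 0.11, adjusted p = 0.0041), a 1.6-fold higher signal.

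Col4a5 encodes a chain of the basement membranes of kidney, lens and smooth muscle. It was at 10.96, 11.21 and 10.01 at day 10, 11.65, 11.99 and 11.82 at day 20, and 11.53, 11.87 and 11.49 at day 30, with replicate 3 of day 10 lowest by far. It rose by 1.09 by day 20 (adjusted p = 0.040), a call that was lost without day 10 replicate 1 or any array of day 20 or day 30 (highest adjusted p = 0.13). By day 30 it was higher by 0.90 and did not pass (95% interval 0.25 to 1.56, adjusted p = 0.057), though it passed without day 10 replicate 2 (1.14, adjusted p = 0.033) or without day 10 replicate 3 (0.55, adjusted p = 0.038). Of the dimmer chains, Col4a4 rose by 0.93 from below 4 at day 10 (adjusted p = 0.025). That call was lost without day 10 replicate 2 (0.89, adjusted p = 0.073), day 30 replicate 2 (0.75, adjusted p = 0.075) or day 30 replicate 3 (0.85, adjusted p = 0.083). The other Col4a4 probe sets differed by 0.68 and 0.17. The call was also lost with the mean of its probe sets (0.59, adjusted p = 0.060) or with only the compared days fitted (adjusted p = 0.053). Col4a3 differed by 0.19 (adjusted p = 0.47) and Col4a6 by -0.01 (adjusted p = 0.98).

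**Figure D2:**
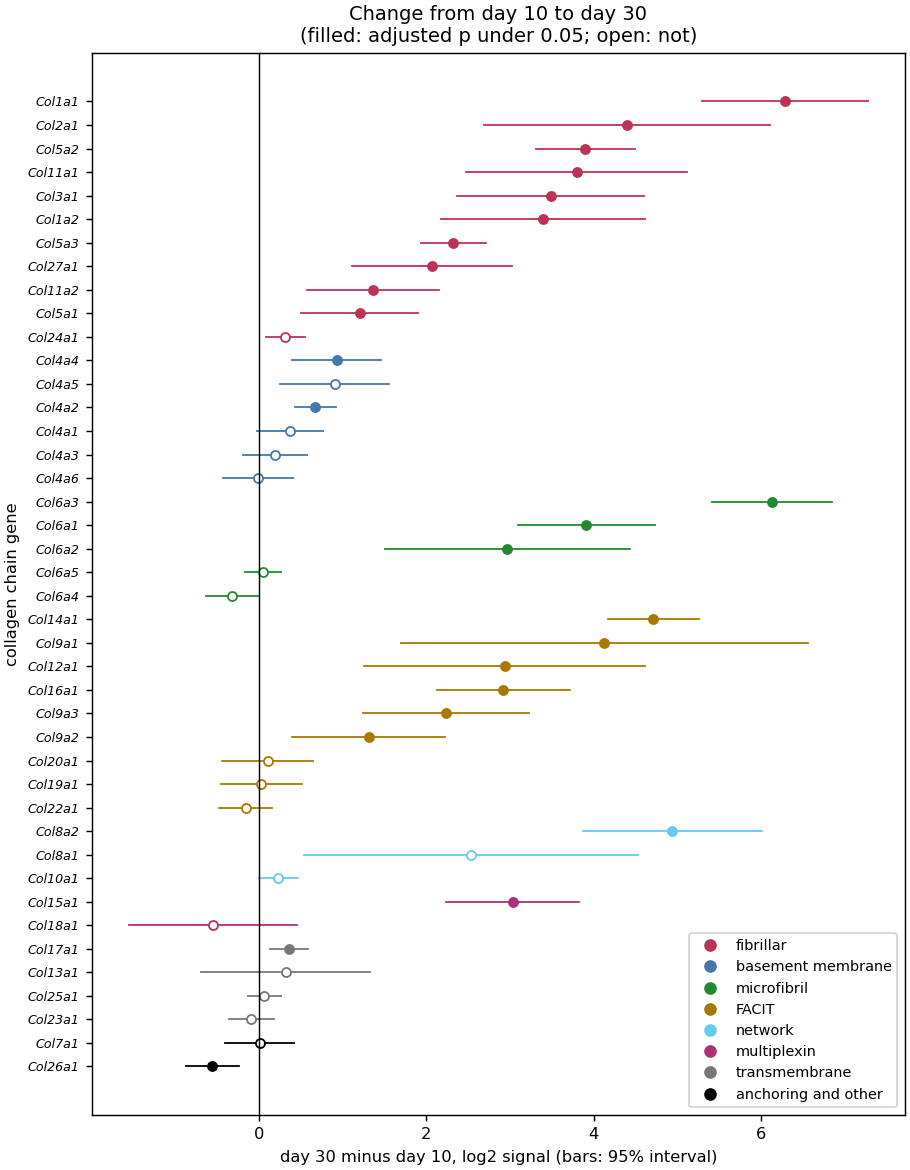
Day 30 minus day 10 difference in log2 signal for each of the 42 collagen chain genes, ordered within groups, with 95% intervals from the fit. Filled points passed an adjusted p of 0.05; the largest differences are those of Col1a1 at 6.28 and Col6a3 at 6.12, and Col26a1 at -0.55 is the 1 gene that fell.

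Type VI microfibril chains rose together with the fibrillar chains. From day 10 to day 30, 3 of the 5 measured rose, beside 11.2% of all genes. The median difference was 2.97, beside -0.03 over all genes. The 3 were Col6a1, Col6a2 and Col6a3, which encode the chains of the classical type VI molecule. Col6a3, whose long chain completes the molecule, was at 6.56, 6.81 and 5.91 at day 10, 12.40, 12.49 and 11.65 at day 20, and 12.79, 12.74 and 12.11 at day 30. The day 10 arrays were near the median of all genes, and days 20 and 30 overlapped far above it. The gene rose by 6.12 (SE 0.31, adjusted p = 3.5e-05), a 69.7-fold higher signal.

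Col6a1 was at 7.85, 8.03 and 8.81 at day 10, 11.58, 10.93 and 10.32 at day 20, and 12.27, 12.38 and 11.77 at day 30. Each day lay above the one before, and the gene rose by 3.91 by day 30 (SE 0.36, adjusted p = 0.00041). Col6a2 was at 8.32, 8.51 and 11.04 at day 10, 11.62, 11.18 and 11.18 at day 20, and 12.40, 12.48 and 11.89 at day 30. Replicate 3 of day 10 stood apart from its group and near the day 20 arrays. The gene rose by 2.97 (SE 0.64, adjusted p = 0.014). The later-found chains were dim, and neither passed: Col6a4 differed by -0.32 (adjusted p = 0.14) and Col6a5 by 0.05 (adjusted p = 0.77).

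Most FACIT chains rose. Those that did not pass the test stayed at or below the median level of all genes on every day mean, as did Col9a2, which rose. A gene could pass that level by rising, so this is no evidence about dim genes. From day 10 to day 30, 6 of the 9 rose, beside 11.2% of all genes. The median difference was 2.23, beside -0.03 over all genes. Col14a1, which binds the surface of type I fibrils and limits their growth, was at 4.88, 4.94 and 4.92 at day 10, 7.76, 6.97 and 6.91 at day 20, and 9.55, 9.39 and 9.95 at day 30. The arrays of each day were close and the days were far apart. It rose by 4.71 (SE 0.23, adjusted p = 3.2e-05), and its other probe sets gave 3.40 and 1.49. Col16a1 was at 6.40, 6.55 and 6.39 at day 10, 8.59, 8.68 and 7.53 at day 20, and 9.43, 9.86 and 8.80 at day 30. Its days did not overlap, and it rose by 2.92 (SE 0.35, adjusted p = 0.0012).

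Col12a1, another chain of fibril surfaces, was at 9.17, 6.63 and 9.55 at day 10, 11.49, 10.21 and 10.47 at day 20, and 10.84, 11.45 and 11.87 at day 30. Replicate 2 of day 10 was lowest, and days 20 and 30 overlapped. It rose by 2.93 (SE 0.73, adjusted p = 0.025), a call lost without day 30 replicate 2 (2.90, adjusted p = 0.069) or replicate 3 (2.69, adjusted p = 0.082). Of its 4 probe sets 2 differed by 0.13 or less, and the mean over the 4 gave 1.44.

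Type IX chains coat the type II fibrils of cartilage. Col9a3 was at 6.05, 6.03 and 5.87 at day 10, 6.98, 7.94 and 6.42 at day 20, and 8.81, 8.42 and 7.42 at day 30, so that days 20 and 30 overlapped and day 10 lay below both. It rose by 2.23 (SE 0.43, adjusted p = 0.0090). Col9a1 had the widest day 10 spread of the FACIT chains, at 5.26, 7.55 and 10.22, against 11.95, 11.76 and 11.71 at day 30. It rose by 4.13 (95% interval 1.69 to 6.56, adjusted p = 0.028), and its call was lost without day 10 replicate 2 (4.06, adjusted p = 0.075) or without day 30 replicate 1, 2 or 3 (highest adjusted p = 0.080). Col9a2 rose by 1.31 at the edge of the threshold (adjusted p = 0.0499), and was lost in 10 of 16 other settings, among them those without day 10 replicate 1 or 2, any day 20 array, or day 30 replicate 1 or 2 (highest adjusted p = 0.15). The FACIT chains Col19a1, Col20a1 and Col22a1 differed by 0.03, 0.11 and -0.16, and none of them passed (lowest adjusted p = 0.48).

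Network chains make the hexagonal sheets of the eye's Descemet membrane, vessel walls and growth cartilage. Col8a2 was at 3.89, 4.13 and 3.78 at day 10, 8.45, 8.24 and 6.88 at day 20, and 8.02, 9.23 and 9.36 at day 30. It was near the floor of the array at day 10 and clearly above it on each later array. It rose by 4.94 (SE 0.47, adjusted p = 0.00046), and no fold is given against a signal so near the floor. The folds given for Col1a1, Col2a1 and Col6a3 also rest on day 10 signals that no detection call showed to be above background. Its partner Col8a1 was at 7.06, 4.75 and 5.99 at day 10, 9.08, 6.13 and 8.40 at day 20, and 7.49, 8.55 and 9.37 at day 30. Its arrays ranged widely at each day, and the difference of 2.54 did not pass (95% interval 0.54 to 4.53, adjusted p = 0.074). It did pass without day 20 replicate 2 (adjusted p = 0.038). Col10a1, the chain of hypertrophic cartilage, differed by 0.23 (adjusted p = 0.14).

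Multiplexins belong to basement membrane zones, and of the 2 genes only Col15a1 was called. Col15a1, which is made in muscle and vessels, was at 5.12, 5.28 and 5.32 at day 10, 8.46, 6.98 and 7.42 at day 20, and 8.49, 7.88 and 8.43 at day 30. Day 10 lay below both later days, which overlapped, and the gene rose by 3.03 (SE 0.35, adjusted p = 0.0010). Col18a1, the source of the fragment endostatin, was at 9.66, 10.89 and 9.14 at day 10, 9.80, 9.88 and 8.97 at day 20, and 9.30, 9.65 and 9.10 at day 30. Its days overlapped, and the difference was -0.55 (95% interval -1.55 to 0.46, adjusted p = 0.43). Without day 10 replicate 2, its highest array, the difference was -0.05.

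Transmembrane and other collagens stayed below the median level of all genes on the mean of every day. Of the 4 transmembrane chains, Col17a1 of the skin's hemidesmosomes rose by 0.36 (adjusted p = 0.037), a call lost in 10 of 16 other settings, among them those without any array but day 30 replicate 1 (highest adjusted p = 0.11). Col13a1, Col23a1 and Col25a1 differed by 0.32, -0.09 and 0.07 (lowest adjusted p = 0.64). Col7a1, the anchoring fibril chain of skin, differed by 0.01 (adjusted p = 0.98). Col26a1 fell, from 4.88, 5.15 and 5.32 at day 10 through 4.84, 4.77 and 4.84 at day 20 to 4.54, 4.39 and 4.76 at day 30. Its difference was -0.55 (SE 0.14, adjusted p = 0.023), and the call was lost without day 10 replicate 2 (adjusted p = 0.068), day 30 replicate 1 (adjusted p = 0.069) or day 30 replicate 2 (adjusted p = 0.075). Its other probe set differed by -0.07. The call was also lost with the mean of both (-0.31, adjusted p = 0.071) or with only the compared days fitted (adjusted p = 0.069).

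The timing of the increase was read from the steps between days. From day 10 to day 20, 14 of the 42 genes rose (33.3%), against 7.30% of all genes, and their 42-gene median was 0.64 beside -0.03 over all genes. Between those days limma called 0 collagen genes lower, against 6.69% of all genes, and 1 was lower at an unadjusted p under 0.05. The 14 were Col1a1, Col1a2, Col3a1, Col5a2 and Col5a3 among fibrillar chains, Col4a2, Col4a4 and Col4a5 of the basement membrane, the microfibril chains Col6a1 and Col6a3, the FACIT chains Col14a1 and Col16a1, and Col8a2 and Col15a1. Col6a3 rose by 5.76 in this step (adjusted p = 0.00011), Col1a1 by 4.75 (adjusted p = 0.00081), Col8a2 by 3.92 (adjusted p = 0.0025) and Col5a2 by 3.34 (adjusted p = 0.00044).

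Smaller steps to day 20 were those of Col3a1 at 3.08 (adjusted p = 0.0071), Col6a1 at 2.72 (adjusted p = 0.0037), Col1a2 at 2.63 (adjusted p = 0.017), Col15a1 at 2.38 (adjusted p = 0.0052), Col14a1 at 2.30 (adjusted p = 0.0012) and Col16a1 at 1.82 (adjusted p = 0.014). The 4 smallest called steps were those of Col4a4 at 1.10 (adjusted p = 0.020), Col4a5 at 1.09 (adjusted p = 0.040), Col5a3 at 0.66 (adjusted p = 0.039) and Col4a2 at 0.62 (adjusted p = 0.010). Leaving out an array ended several of these calls. Col1a2 was lost without day 20 replicate 1 (2.40, adjusted p = 0.058) or replicate 2 (2.65, adjusted p = 0.058), Col16a1 without day 20 replicate 2 (1.61, adjusted p = 0.055), Col4a4 without day 10 replicate 2 or day 20 replicate 1 or 2 (highest adjusted p = 0.075), and Col5a3 without day 10 replicate 1 or 2 or any day 20 array (highest adjusted p = 0.13).

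From day 20 to day 30, 2 of the 42 genes rose (4.76%), Col14a1 and Col5a3, against 0.291% of all genes. In that step limma called 0 collagen genes lower, as it did 0.0440% of all genes, and 0 were lower at an unadjusted p under 0.05. The 42-gene median was 0.40 beside 0.00 over all genes. Col14a1 rose by 2.41 (adjusted p = 0.015) and lost its call without day 10 replicate 2 or day 20 replicate 2 or 3 (highest adjusted p = 0.067). Col5a3 rose by 1.66 (adjusted p = 0.018) and lost it without day 10 replicate 2, day 20 replicate 2 or 3 or day 30 replicate 2 (highest adjusted p = 0.073). The cartilage chains Col2a1 and Col11a1 had day 30 minus day 20 differences of 3.05 (adjusted p = 0.18) and 2.28 (adjusted p = 0.19), neither of which passed.

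The later step minus the earlier step tests whether the pace changed. It was called below 0 in 2 of the 42 genes, Col5a2 and Col6a3, as in 0.324% of all genes, and 11 of the 42 were below 0 at an unadjusted p under 0.05. None of the 42 was called above 0 by limma, where 0.154% of all genes were, and 3 were above 0 at an unadjusted p under 0.05. Col6a3 gave -5.39 (SE 0.54, adjusted p = 0.014) and Col5a2 gave -2.78 (SE 0.44, adjusted p = 0.048). The Col6a3 call was lost without day 20 replicate 2 (-5.08, adjusted p = 0.085) or replicate 3 (-5.92, adjusted p = 0.055). The Col5a2 call was lost in 11 of 16 other settings, among them those without any array but day 10 replicate 3, with values from -3.26 to -2.38 and a highest adjusted p of 0.22. The value for Col1a1 was -3.23 (adjusted p = 0.12) and that for Col2a1 was 1.70 (adjusted p = 0.57). Both steps share the day 20 arrays, so they are not independent. Over all 3 days, 20 of the 42 genes (47.6%) differed by the moderated F test, as did 17.5% of all genes.

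**Figure D3:**
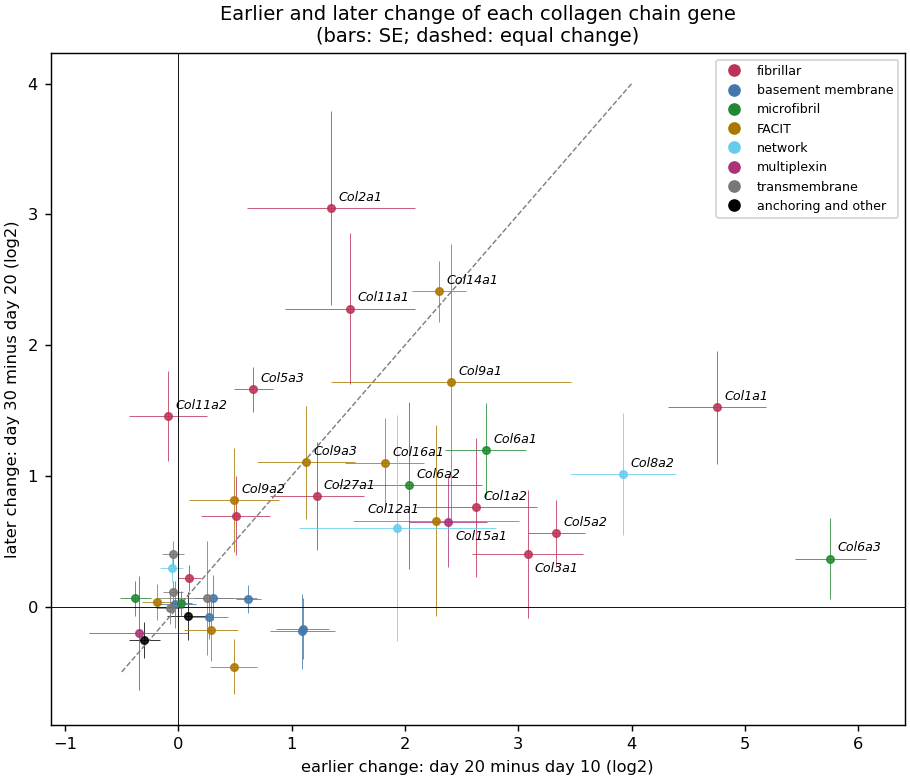
Log2 difference of each of the 42 collagen chain genes from day 10 to day 20 (horizontal axis) and from day 20 to day 30 (vertical axis), coloured by group. Both axes use the same day 20 arrays; Col6a3 (5.76 and 0.37) and Col3a1 (3.08 and 0.40) lie far right and low, while Col14a1 (2.30 and 2.41) lies near the diagonal.

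Chains of 1 collagen type were compared within each array, and so were the 2 multiplexins. The multiplexins Col15a1 and Col18a1 are of different collagen types and are not partner chains. For 12 pairs the log2 signal of the first chain minus that of the second was taken on each array, and its change over days was tested by an exact permutation test of the F ratio over the 9 arrays, in which the smallest possible p is 0.00357. A difference on 1 array compares probe sets with different affinities, so only its change between days is read. Of the 12 pairs, 5 changed at an adjusted p of 0.05. Col1a1 minus Col1a2 went from -3.91 ± 1.75 (SD, n = 3) at day 10 to -1.79 ± 0.21 at day 20 and -1.03 ± 0.42 at day 30, so the signal of Col1a1 grew more than that of its partner (exact permutation p = 0.00357, adjusted 0.0143). This call was lost without any of the arrays of day 20 or day 30 (highest adjusted exact permutation p = 0.0796, without day 30 replicate 2). The day 30 signals of the Col1a2 probe set lay close to the highest of any probe set, 14.52. Its other probe sets rose by 4.21 and 3.52 from day 10 to day 30, beside 6.28 for Col1a1, and the pair was not tested with them. Col5a1 minus Col5a2 went from 1.30 ± 0.38 to -1.53 ± 0.10 and -1.40 ± 0.06 (exact permutation p = 0.00357, adjusted 0.0143). Col6a2 minus Col6a3 went from 2.86 ± 1.96 to -0.85 ± 0.43 and -0.29 ± 0.09 (exact permutation p = 0.00357, adjusted 0.0143).

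The other pairs that changed were Col15a1 minus Col18a1, by 3.58 from day 10 to day 30 (exact permutation p = 0.0107, adjusted 0.0321), and Col4a5 minus Col4a6, by 0.91 (exact permutation p = 0.0179, adjusted 0.0429). The first was lost without replicate 2 of day 10 or of day 20, or replicate 1 or 3 of day 30 (highest adjusted exact permutation p = 0.1). The second was lost without day 10 replicate 2, day 20 replicate 2 or 3 or day 30 replicate 1 or 3 (highest adjusted exact permutation p = 0.0918). Col4a1 minus Col4a2 changed by -0.30 and did not pass (exact permutation p = 0.0679, adjusted 0.102). For Col6a1 minus Col6a2 the change was 0.95 (exact permutation p = 0.143, adjusted 0.156), and for Col4a3 minus Col4a4 it was -0.74 (exact permutation p = 0.0286, adjusted 0.0571). Among cartilage pairs Col9a1 minus Col9a2 gave 2.82 (adjusted exact permutation p = 0.0918), Col9a2 minus Col9a3 gave -0.92 (adjusted exact permutation p = 0.164) and Col11a1 minus Col11a2 gave 2.43 (adjusted exact permutation p = 0.105). Col8a1 minus Col8a2 gave -2.40 (adjusted exact permutation p = 0.156).

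**Figure D4:**
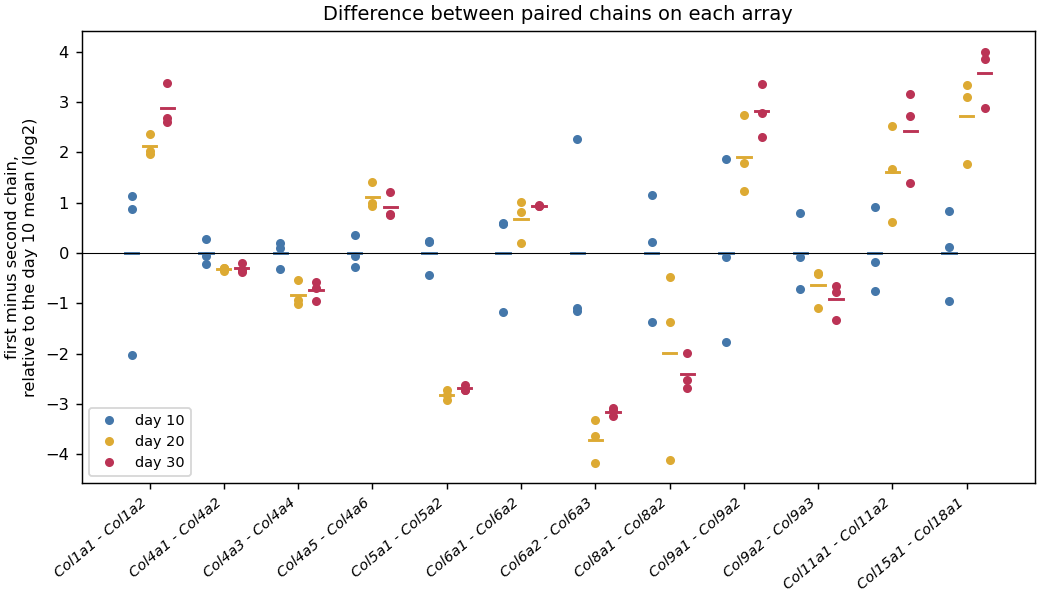
Log2 signal of the first chain minus the second on each array for 12 pairs, shown relative to the pair's day 10 mean, so that 0 is the day 10 mean. Points are arrays and short bars are means of the 3 arrays of a day; Col1a1 minus Col1a2 lies 2.89 higher at day 30, Col5a1 minus Col5a2 2.70 lower and Col6a2 minus Col6a3 3.16 lower.

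Several collagen genes lie side by side in the genome. In the RefSeq table of assembly GRCm38.p6, 8 pairs of collagen genes were neighbours among protein-coding genes, and both members were measured in 7. Col3a1 and Col5a2 both rose, by 3.48 and 3.90, and so did Col6a2 and Col6a1, by 2.97 and 3.91. Col6a5 and Col6a4 differed by 0.05 and -0.32, and neither passed. Col9a1 rose by 4.13 while its neighbour Col19a1 differed by 0.03 (adjusted p = 0.95). The type IV genes lie in such pairs with their chain partners. Their day 30 minus day 10 differences were 0.38 and 0.68 for Col4a1 and Col4a2, 0.19 and 0.93 for Col4a3 and Col4a4, and 0.90 and -0.01 for Col4a5 and Col4a6.

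Genes that fold, process and cross-link collagen rose in part. Of 30 genes on that list 27 were measured, and from day 10 to day 30 14 rose, beside 11.2% of all genes, with a median difference of 0.58. limma called 0 of the 27 lower, and 1 was lower at an unadjusted p under 0.05. Lox, the lysyl oxidase that cross-links collagen chains, was at 6.11, 5.0 and 4.87 at day 10, 12.24, 12.07 and 11.31 at day 20 and 11.42, 12.77 and 12.28 at day 30, and rose by 6.83 (adjusted p = 0.00011). The proline and lysine modifying genes P3h3, P4ha2 and Colgalt1 rose by 3.97 (adjusted p = 0.00048), 1.95 (adjusted p = 0.0034) and 0.61 (adjusted p = 0.0052). By day 20, 11 of the 27 had risen from day 10, beside 7.30% of all genes. Between day 20 and day 30 1 of the 27 fell, the procollagen peptidase gene Adamts3, beside 0.0440% of all genes. Serpinh1, the collagen chaperone of the endoplasmic reticulum, was high at each day and differed by 0.45 (adjusted p = 0.082).

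Of 12 collagen receptor genes 11 were measured and 4 rose from day 10 to day 30, beside 11.2% of all genes, with a median difference over the list of 0.10. They were Adgrg1, an adhesion receptor for type III collagen, by 2.27 (adjusted p = 0.0016), the discoidin domain receptors Ddr2 by 0.67 (adjusted p = 0.010) and Ddr1 by 0.52 (adjusted p = 0.037), and the collagen uptake receptor Mrc2 by 1.20 (adjusted p = 0.032). limma called 0 of the 11 lower, with 1 lower at an unadjusted p under 0.05.

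Some markers of other cell types moved along with the collagen genes, and their part in the result was not tested. Of 10 fibroblast genes outside the matrix, 5 rose from day 10 to day 30, beside 11.2% of all genes, and the list mean was 5.70 to 6.07 on day 10 arrays, 6.58 to 7.22 at day 20 and 7.68 to 7.81 at day 30. They were S100a4 at 4.96, Prrx1 at 4.36, Thy1 at 3.69, Tcf21 at 2.07 and Fap at 0.94. Thy1, a surface marker of fibroblasts, was at 4.35, 4.57 and 4.30 at day 10, 5.66, 4.85 and 5.51 at day 20 and 8.33, 7.59 and 8.36 at day 30, so the days did not overlap. Of 10 cartilage and tendon markers 4 rose, beside the same 11.2%, and the list mean was 5.04 to 5.25, 5.47 to 5.70 and 5.94 to 6.59 at the same days. They were Acan, the aggrecan core protein, by 4.52 (adjusted p = 3e-04), Hapln1 by 2.69 (adjusted p = 0.018), the cartilage transcription factor gene Sox9 by 1.98 (adjusted p = 0.0085) and the tendon factor gene Scx by 1.31. Matn1 of mature cartilage was at 3.47 to 3.76 on the 9 arrays.

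Smooth muscle and pericyte markers had list means of 9.13 to 9.38 at day 10, 9.49 to 10.2 at day 20 and 9.11 to 9.91 at day 30, with 3 of 10 higher at day 30 than at day 10 (Pdgfrb, Smtn and Cspg4), beside 11.2% of all genes, and 2 lower (Cnn1 and Acta2), beside 9.92%. The endothelial mean was 4.64 to 5.91 at day 10, 4.68 to 4.72 at day 20 and 4.75 to 4.94 at day 30. Of its 10 genes, 1 was called lower at day 30 than at day 10, beside 9.92% of all genes, and 1 higher, beside 11.2%. The growth factor receptor gene Kdr fell, with a difference of -1.13 (adjusted p = 0.016), and Erg rose by 1.27 (adjusted p = 0.013). At an unadjusted p under 0.05, 5 of the 10 were lower. The epicardial mean was 4.85 to 6.50, 4.90 to 5.68 and 5.10 to 6.04. Of its 9 genes 1 fell, beside 9.92% of all genes, the keratin gene Krt19, with a difference of -3.29 (adjusted p = 0.017). Parietal and visceral endoderm markers, whose cells are rich in type IV collagen, had means of 5.62 to 5.86, 5.70 to 5.85 and 5.77 to 5.92. Of the 10, 1 rose (Thbd), beside 11.2% of all genes. Single day 10 arrays stood out on these lists. On replicate 1 the epicardial genes Krt19, Upk1b and Tbx18 reached 10.06, 7.92 and 7.39, and on replicate 3 the endothelial genes Cdh5 and Pecam1 reached 6.85 and 6.18. Replicate 3 was also the day 10 array with the highest Col1a1, Col2a1, Col6a2 and Col9a1, genes named here after their values were seen. Other collagen genes went the other way. Replicate 3 was the lowest day 10 array for Col4a1, Col4a2, Col4a5, Col5a2, Col6a3, Col11a1 and Col18a1.

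**Figure D5:**
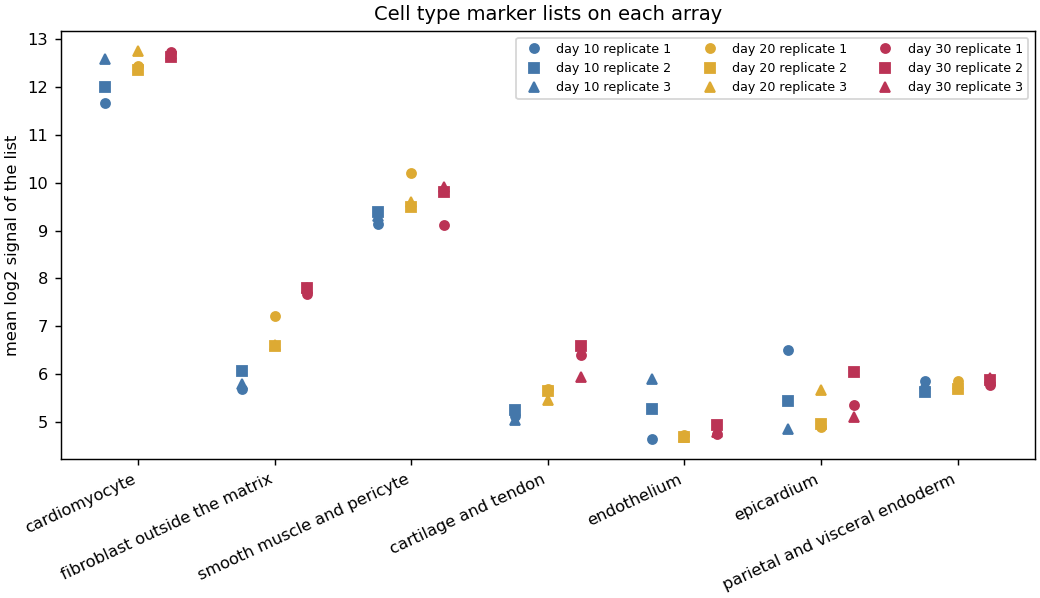
Mean log2 signal (vertical axis) of each of 7 cell type marker lists on each array, with days by colour and replicates by symbol. The fibroblast list lies between 5.70 and 6.07 at day 10 and between 7.68 and 7.81 at day 30, and the cardiomyocyte list is at 11.67 or above on every array.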

How the data were processed

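RNA was amplified and labelled from its 3′ end and hybridised to 9 one-colour arrays, per the labels' protocols. The authors deposited a log2 signal for each probe set on each array, and these signals were used as they stand, with no detection call per probe set. Their normalization is not given in the sources used here, and base 2 was inferred from their range, 2.77 to 14.52. The platform annotation gave 1 symbol to 34945 of 45101 probe sets and several to 932, which were not used. All 42 collagen genes matched RefSeq by gene identifier.

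A mean per day was fitted to all 9 arrays and 18193 genes by lmFit and eBayes of limma 3.58.1 (R 4.3.3), with 6 degrees of freedom from residuals and 2.18 from the prior. Tests were two-sided, with Benjamini-Hochberg adjustment across all 18193 genes. Pairs of chains were tested by an exact permutation test over 280 distinct splits of the arrays, adjusted over 12 pairs. The fit was first tested on simulated data.

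Every called collagen gene was named, with per-array values for up to 4 genes of a group above the median level, in order of the moderated F test, and for the main chains of types I, III, IV and VI. Outside that rule, array values were also given for Col2a1, Col5a1, Col9a1 (day 10 and day 30) and Col26a1. The collagen genes and lists were chosen with earlier results of these data known. Alternatives were other normalizations, a filter on dim genes, the mean of probe sets, array weights, a mean-variance trend, a replicate block, a fit of the compared days only, and each array left out.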

Additional observations from a re-analysis of the deposited data

Results flagged for a closer look

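In 2 collagen genes the change from day 20 to day 30 differed from the change from day 10 to day 20, by a test of the difference itself. For Col6a3 the later minus the earlier change was -5.39 (limma, adjusted p = 0.014), and for Col5a2 it was -2.78 (limma, adjusted p = 0.048). The steps share the day 20 arrays. The Col6a3 call was lost without day 20 replicate 2 or 3, and the Col5a2 call without any array but day 10 replicate 3.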

How the results depend on the processing

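Over 17 other settings, most values of single genes kept their direction and their side of the threshold, uncalled genes included. In 884 of the recomputed values of a gene the direction and the side of the threshold were the same, in 87 the call was lost, in 15 it was gained, and in 14 an uncalled value changed sign. The 24 genes higher at day 30 than at day 10 numbered 17 to 24 when an array was left out and 18 when only the compared days were fitted. Quantile normalization was the only setting that gave the same 24 genes. The 14 higher at day 20 numbered 10 to 19 with an array left out and 19 with array weights, and the 20 by the F test 15 to 25. Between day 20 and day 30 the 2 higher genes became 0 to 2 with an array left out (0 without day 10 replicate 2 or day 20 replicate 2 or 3). Genes lower at day 20 than at day 10 numbered 1 with array weights and 0 to 1 with an array left out. Genes lower at day 30 than at day 10 numbered 0 with the filter on dim genes, the mean of probe sets or only the compared days, 3 with array weights, and 0 to 2 with an array left out. Genes with a slower later step numbered 1 with quantile normalization, median centring or the mean of probe sets, and 0 to 4 with an array left out (0 without day 20 replicate 2 or 3, 4 without day 10 replicate 3).

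Over the collagen genes left by the filter on dim genes, the median day 30 minus day 10 difference was 2.97. For fibrillar chains it was 2.54 with array weights. For microfibril chains it was 3.91 with the filter, 3.49 with array weights and 2.48 to 3.84 with an array left out, and for FACIT chains 2.93 with the filter and 1.44 with the mean of probe sets. Microfibril chains had a higher median than fibrillar chains with array weights, with the filter (3.91 against 3.44) and without day 10 replicate 3 (3.84 against 3.31). The filter drops genes at or below the median level of all genes on every day mean, among them Col6a4 and Col6a5. A gene could pass it by rising, so the medians with the filter are no evidence of a larger rise. It also tests fewer genes, which bears on calls and not on medians. For the other settings the cause was not tested.

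Replicate numbers were not taken to pair the samples, since the deviations of same-numbered arrays correlated at -0.15 to 0.43 and not all above 0.1. Differently numbered arrays correlated at -0.46 to 0.24. With a replicate block 24 genes were higher at day 30 than at day 10, of which 22 were shared, and 14 at day 20. The block ended the calls of Col9a1 and Col9a2 and gave calls to Col24a1 and Col4a5. With the block the adjusted exact permutation p of Col1a1 with Col1a2, Col4a5 with Col4a6, Col5a1 with Col5a2, Col6a2 with Col6a3 and Col15a1 with Col18a1 was 0.0667, each at the smallest p the block allows. For Col4a5 with Col4a6 it was 0.0514 with the mean of probe sets. With an array left out the adjusted exact permutation p ran from 0.0143 to 0.0796 for Col1a1 with Col1a2, 0.0429 to 0.136 for Col4a3 with Col4a4, 0.0321 to 0.0918 for Col4a5 with Col4a6, 0.0214 to 0.171 for Col9a1 with Col9a2, 0.049 to 0.414 for Col9a2 with Col9a3, and 0.0257 to 0.1 for Col15a1 with Col18a1.

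Uncalled day 30 minus day 10 differences that changed sign were those of Col13a1 (-0.22 with array weights, and -0.11 to 0.61 with an array left out), Col19a1 (-0.05 without day 30 replicate 3), Col20a1 (-0.05 to 0.39 with an array left out), Col4a6 (-0.23 to 0.15) and Col7a1 (-0.02 with quantile normalization, 0 with median centring, and -0.14 to 0.18 with an array left out).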

Other observations

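Probe sets of 1 collagen gene did not always move alike. The dimmer Col25a1 probe set was at 3.79, 3.70 and 3.93 at day 10, 5.31, 4.37 and 4.36 at day 20 and 6.09, 6.23 and 4.57 at day 30, a day 30 minus day 10 difference of 1.82, beside 0.07 for the brightest. With the mean of both the gene rose by 0.94 (limma, adjusted p = 0.030). The other Col22a1 probe sets differed by -0.66 and -0.80, beside -0.16 for the brightest. A second Col19a1 probe set was at 5.77, 4.20 and 4.41 at day 20, against 3.41 to 3.63 at day 10 and 3.80 to 4.23 at day 30. The second Col18a1 probe set differed by -0.97, and with array weights the brightest gave -1.30 (limma, adjusted p = 0.031).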
